A study of Rattus norvegicus with 12 samples.

Results

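The 6 control arrays of this rat study describe the transcriptome of epididymal adipocytes, the fat cells of the pad beside the epididymis, in animals that received no stress protocol. The series holds 12 arrays, 6 of them from control rats and 6 from rats of the chronic stress arm, and only the 6 control arrays were used here, with 1 array for each of rats 1 to 6. All were male Fisher 344 rats, an inbred strain, and RNA was collected at the end of a 35 day protocol during which the control rats were only handled every 2 days at weighing. Members were chosen by their label alone, and no comparison with stressed rats was made. The cell type label reads adipocytes while the extraction text names preadipocytes, so the labelled cell type was checked against marker genes below. Neither the rats' age nor their cages are given in the labels, and nothing states that the samples were pooled.

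White adipocytes store energy as triglyceride in a single large lipid droplet. They take up fatty acids that lipoprotein lipase frees from circulating lipoproteins, esterify them, and release them again through adipose triglyceride lipase and hormone-sensitive lipase when catecholamines act on beta-adrenergic receptors. PPARγ and C/EBPα hold this programme in place, and the cells secrete hormones such as adiponectin and leptin. Fat cells are isolated from the pad by digestion and flotation, and vascular, fibroblast and immune cells of the surrounding tissue can come along with them.

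Each array carried 58717 non-control spots for 30367 probes, which gave 17595 named genes. Levels are given as the log2 signal of the brightest probe of a gene minus the 75th percentile of the same array, so that 0 is that percentile and 1 unit is a 2-fold difference. Probes differ in how strongly they bind, and for 1558 genes with more than 1 detected probe the brightest pair differed by a median of 1.86 log2 units, or 3.62-fold. A rank by level is therefore a rank of probe signals and not of transcript numbers. The percentile lay between an intensity of 230 and 400, 60.5% to 67.4% of probes were well above background on each array, and no probe was saturated on any of them. All 6 arrays shared 1 slide and 1 scan, so no batch could be tested.

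The array of rat 3 stood apart from the other 5. It had the lowest percentile (an intensity of 230), and its score on the first principal component, which held 67.2% of the variance, was 62.0 against -24.1 to -3.35 in the other rats. The 10 spike-in transcripts are RNA added to every sample that is not of the rat. They were 0.53 log2 higher in rat 3 than in the mean of the other 5 after scaling and 0.10 lower before scaling. They did not set rat 3 apart, since after scaling rat 1 at 2.52 lay above rat 3 at 2.48. Before scaling rat 3 at 10.33 lay within the 10.04 to 10.77 of the other rats. Of the 10711 genes whose brightest probe was well above background on all 6 arrays, 43.5% were highest in rat 3 and 27% lowest, and the median gene was 0.13 higher there than in the mean of the other rats. SDs are over all 6 rats, and for the genes whose SD fell most when rat 3 was left out, the SD without it is given as well.

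The adipocyte identity of the samples was plain in every rat. All 18 adipocyte markers measured were well above background on all 6 arrays, against 61% of all named genes, and 11 of the 18 were among the 500 brightest genes, against 2.84% of all genes. Cfd, which encodes the serine protease adipsin, ranked second of all named genes at 9.43 in the lowest rat, 9.65 at the median and 10.4 in the highest. Adipoq, the adiponectin gene, ranked 14th with 8.16, 8.35, 9.20, 8.25, 8.14 and 8.37 in rats 1 to 6, a mean of 8.41 ± 0.40 (SD, n = 6). Rats 1, 2, 4, 5 and 6 lay close together for Adipoq while rat 3 lay apart above them, and the SD without rat 3 was 0.11. Fabp4, the cytosolic fatty acid carrier of adipocytes, lay between 7.52 in rat 1 and 8.89 in rat 3.

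Lpl, lipoprotein lipase, was at 6.14 ± 0.37 and was also highest in rat 3, at 6.87, and its SD without rat 3 was 0.09. Cd36, a fatty acid transporter of the cell surface, was at 7.80 ± 0.14, and its highest rat was rat 5 at 8.08, while rat 3 at 7.75 lay among the others. Across the marker list 16 of 18 genes were highest in rat 3, with Cd36 and Trarg1 as the exceptions. The plot of adipocyte marker levels shows this in single rats. The list mean of these markers was 4.40, 4.32, 5.04, 4.27, 4.16 and 4.36 in rats 1 to 6.

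**Figure D1:**
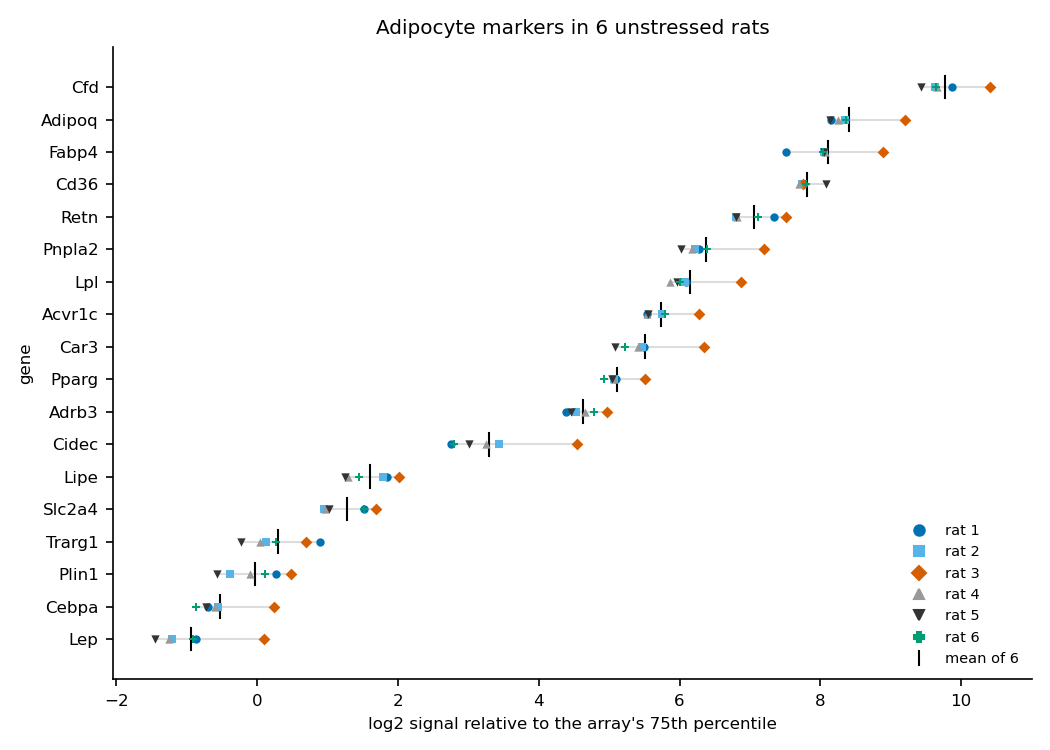
Log2 signal relative to each array's 75th percentile (horizontal axis) of the 18 adipocyte markers (vertical axis), with 1 symbol for each of the 6 unstressed rats and a bar at the mean. All 18 were well above background on all 6 arrays and 16 were highest in rat 3, with Cd36 highest in rat 5.

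Most genes of fat storage were detected. All 18 genes that import fatty acids or build triglyceride were well above background on all 6 arrays, against 61% of all named genes. Of these 18 genes, 7 were among the 500 brightest, against 2.84% of all named genes. Fabp5, a second fatty acid carrier that macrophages and endothelial cells also make, was at 6.73 ± 0.48 and, unlike Fabp4, was lowest in rat 3 at 5.85. The fatty acid transporters Slc27a1 and Slc27a4 were at 1.74 ± 0.34 and -1.85 ± 0.14. Of 13 lipid droplet proteins 11 (84.6%) were detected on all 6 arrays. Cidea, a protein that drives transfer of lipid between droplets, was at 5.46 ± 0.47, and Cidec, its counterpart of white fat, at 3.30 ± 0.67 with 4.55 in rat 3 and 2.75 to 3.44 in the others. Plin1, the perilipin that coats the adipocyte droplet, read only -0.03 ± 0.40 from its probe, which is a probe signal and sets no order among transcripts. Plin2, the perilipin found in most cell types, was at 4.20 ± 0.31 and was lowest in rat 3, at 3.63. Plin5 was well above background on 1 array and Cideb on none. The SD without rat 3 was 0.23 for Fabp5, 0.17 for Slc27a1, 0.24 for Cidea, 0.29 for Cidec and 0.15 for Plin2.

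All 18 genes of lipolysis were well above background on all 6 arrays, against 61% of all named genes. Pnpla2, which encodes adipose triglyceride lipase, was at 6.38 ± 0.42, with 7.20 in rat 3 and 6.02 to 6.39 elsewhere. Lipe, hormone-sensitive lipase, was at 1.61 ± 0.32, and Mgll, the lipase of the last step, at 2.49 ± 0.23. Abhd5, the coactivator of adipose triglyceride lipase, was at -1.19 ± 0.26. For Mgll rat 3 at 2.46 lay among the others, and for Lipe at 2.02 and Pnpla2 it was the highest rat. The SD of Pnpla2 without rat 3 was 0.14.

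Of 15 measured genes of fatty acid synthesis 14 were detected on all 6 arrays, against 61% of all named genes. Scd, stearoyl-CoA desaturase, ranged from 5.74 in rat 2 to 7.51 in rat 3, a 3.41-fold difference, and Fasn, fatty acid synthase, from 2.64 in rat 4 to 3.99 in rat 3. Acly, which makes cytosolic acetyl-CoA, was at 4.34 ± 0.32, with an SD of 0.20 without rat 3. Acaca, acetyl-CoA carboxylase 1, was at -2.49 ± 0.64, and Acacb, the second carboxylase, passed the background limit on no array. Scd2, a desaturase of many other tissues, went the other way from Scd and was lowest in rat 3, at -3.42 against -1.85 to -1.07.

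Among secreted factors 17 of 22 (77.3%) were detected on all 6 arrays, against 61% of all named genes. Retn, the resistin gene, was at 7.06 ± 0.31 and Rbp4, retinol-binding protein 4, at 7.37 ± 0.39. Lep, the leptin gene, was at -0.93 ± 0.55, with 0.09 in rat 3 and -1.45 to -0.87 in the others. Without rat 3 the SD fell to 0.17 for Rbp4 and 0.25 for Lep. Nampt, an enzyme of NAD synthesis that is also secreted, was at 0.07 ± 0.26. Itln1, which encodes omentin and is a product of human omental fat, and Nrg4, a growth factor of brown fat, passed the background limit on no array.

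The 16 measured genes of insulin signalling and glucose uptake were all detected on all 6 arrays, against 61% of all named genes. Insr, the insulin receptor, was at -2.95 ± 0.41, and its adaptors Irs1, Irs2 and Irs3 at -1.63 ± 0.18, 1.00 ± 0.25 and -0.74 ± 0.46. Pik3ca, the catalytic subunit of phosphoinositide 3-kinase, was steady between rats at 0.86 ± 0.07, and its regulatory partner Pik3r1 lay between 0.34 and 1.17. Of 14 adipogenic transcription factors 12 (85.7%) were detected on all 6 arrays. Pparg was at 5.12 ± 0.20 and Cebpb, an early factor of adipogenesis, at 5.14 ± 0.19. Cebpa was at -0.53 ± 0.39, with 0.23 in rat 3 and -0.87 to -0.55 in the others. Klf15, a glucocorticoid-responsive factor of adipogenesis, was at 2.08 ± 0.48. Cebpd was lowest in rat 3, at 1.77 against 3.16 to 4.05. Without rat 3 the SD was 0.07 for Pparg, 0.12 for Cebpa, 0.20 for Klf15 and 0.28 for Irs3.

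Among genes that mark fat depots, Hoxa5 and Hoxc9, homeobox genes of body position, were at 2.17 ± 0.25 and 1.25 ± 0.17. The median SD over all detected genes was 0.25. Wt1, a mesothelial and visceral fat gene, was at 0.29 ± 0.51, with its lowest value of -0.69 in rat 3 and an SD of 0.18 without that rat. Hoxa9 was at -4.00 ± 0.36, and Tbx15, a gene linked to subcutaneous fat, was read above background on no array. Tcf21, a factor of visceral stromal cells, lay between -0.88 and -0.44 in 5 rats and at -3.34 in rat 3.

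Cytosolic ribosomal proteins made up 21 of the 50 brightest named genes and 13 of the first 30. Of the 90 measured ribosomal protein genes 77 were among the 500 brightest, against 2.84% of all named genes. Rplp2, Rpl41, Rplp0, Rpl37a, Rpl21, Rplp1, Rpl24, Rps12, Rpl35, Rpl19, Rps14 and Rps23 were among those 13, with mean levels from 7.99 to 9.09. They varied little, with a median SD of 0.10 over the 87 ribosomal protein genes whose brightest probe was detected on all 6 arrays, against 0.25 over all genes. Their family has many near-identical processed copies in the genome, so that probes of this group can read more than 1 copy.

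Ftl1 and Fth1, the light and heavy chains of ferritin, were at 9.37 ± 0.35 and 8.57 ± 0.34. Both were highest in rat 3, at 10.04 and 9.23, and without it their SDs were 0.14 and 0.12. Gsn, the actin-severing protein gelsolin, was at 8.64 ± 0.14, with rat 3 at 8.75 among the other rats. Tmsb10, an actin monomer binding peptide, was at 8.46 ± 0.33 and Myl6, a light chain of non-muscle myosin, at 8.36 ± 0.14. Tpt1, a growth-related cytosolic protein, and Ppia, the cyclophilin A gene, were at 8.18 ± 0.08 and 8.08 ± 0.25. Chchd2l3, named Chchd2 on the array and a relative of a mitochondrial regulator, was at 8.58 ± 0.34. Leaving out rat 3 gave an SD of 0.14 for Tmsb10, 0.06 for Ppia and 0.08 for Chchd2l3.

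Besides Cfd, Adipoq and Fabp4, fat cell genes among the first 30 were Ces1d, a carboxylesterase with triglyceride hydrolase activity, and Aoc3, an amine oxidase of the adipocyte surface. Ces1d was at 8.08 ± 0.42, with 8.91 in rat 3 and 7.78 to 8.06 in the others. Aoc3 was at 8.04 ± 0.29, with 8.59 in rat 3 and 7.83 to 8.13 in the others. Igf1, insulin-like growth factor 1, was at 7.92 ± 0.36, between 7.50 in rat 1 and 8.59 in rat 3. Without rat 3 the SDs of Ces1d, Aoc3 and Igf1 were 0.12, 0.12 and 0.17. Of the 50 brightest probes of the whole array, 19 had no gene symbol and are not named here.

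The brightest named gene and several others near the top were read by probes that hold letters of repeated elements. Stfa2, a cystatin-type protease inhibitor of white blood cells, ranked first at 10.17 ± 0.28, and Twnk, the helicase of mitochondrial DNA, ranked 6th at 8.87 ± 0.22. Their probes share a run of 22 bases, and 16 bases of it also stand in the probe of Cavin2, a coat protein of caveolae, at 7.90 ± 0.17. Only these 3 of the 30367 probes hold the 16 bases, which also occur in rodent ID elements, short interspersed repeats copied from a small RNA gene. Each stretch printed here and below is 30 of the 60 bases of its probe, 5′ to 3′ as in the probe. The coordinates beside it, from the array's own rn4 annotation, are those of the whole probe, and capitals mark the shared run.
Stfa2 (chr11:66424981-66425040, plus strand): gattgggGATTTAGCTCAGTGGTagagcac
Twnk (chr1:250079111-250079170, plus strand): tcttggggttgggGATTTAGCTCAGTGGTa
Cavin2 (chr9:47373088-47373147, minus strand): ggctggaGATTTAGCTCAGTGGTtgcctag
The second probe of Twnk, without the run, read -2.27 and was well above background on all 6 arrays. Its repeat-bearing probe at 8.87 was thus far brighter in the same RNA. The SDs of Stfa2 and Twnk without rat 3 were 0.13 and 0.15.

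Ceacam9, a cell adhesion family member, ranked 4th at 9.25 ± 0.23, and its probe shares 11 bases with that of Igtp, an interferon-inducible GTPase, at 7.90 ± 0.22. These letters, in capitals here, occur in rodent B2 elements, another class of short interspersed repeat.
Ceacam9 (chr1:77059860-77059919, plus strand): tctgtaatgGCCCTCTTCTGgtgttataaa
Igtp (chr10:43837008-43837067, plus strand): ggatctgatGCCCTCTTCTGatctatctga
Another probe with the 11 bases, that of Dcaf4, a ubiquitin ligase adaptor, read only -1.67. The second probe of Igtp read -0.75. Leaving out rat 3, the SDs of Ceacam9 and Igtp were 0.09 and 0.11. Neither element was compared with a repeat library here, so the part of repeat RNA in these signals was not tested. Dcaf4, Cavin2 and Igtp were chosen after their values were seen.

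Of the 17595 named genes, 10728 (61%) were well above background on all 6 arrays, 2304 on 1 to 5 and 4563 (25.9%) on none. The last group is described as not well above background and not as absent, since a dim probe leaves only a bound. Odorant and pheromone receptors, which belong to sensory neurons of the nose, show how often a gene that fat is not known to use passed this limit. Of 1107 genes with olfactory receptor symbols, 859 (77.6%) were on no array and 72 on all 6, and of 159 vomeronasal receptors 112 were on none.

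Of 7 measured B and plasma cell markers 6 were on no array, among them Cd79b, a chain of the B cell receptor, Ms4a1, Jchain, Mzb1 and Cr2. Their mean levels lay between -6.84 and -6.30, where the median olfactory receptor, at -6.82, also lay. Blnk was on 5 arrays. Among 11 T and natural killer cell markers, Cd3e, Cd2, Cd8a and Klrd1 were on none, 3 on some and 4 on all 6, namely Cd3d at -1.05 ± 0.28, Cd3g at -3.75 ± 0.66 (0.33 without rat 3), Cd4 at -3.56 and Nkg7 at -2.34. Of 10 mast cell markers Mcpt1, Mcpt4, Fcer1a and Ms4a2 were on no array. A further 4 were on 1 to 5, among them Cma1 and Tpsb2 on 5, and 2 were on all 6, among them Kit. Of 9 neutrophil markers S100a8, Elane, Ngp, Ltf and Csf3r were on none, while Mpo at -1.38, Camp at -2.81 and Cxcr2 at -2.25 were on all 6. The mean of these 3 was -1.65 in rat 3 and -2.46 to -1.93 in the others. The shares on none were 85.7% for the B and plasma cell list and 36.4% for the T and natural killer cell list. They were 40% for the mast cell list and 55.6% for the neutrophil list, against 25.9% of all named genes.

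The markers of brown fat split. Of 12 measured, 5 (41.7%) were on all 6 arrays and 6 (50%) on none, against 61% and 25.9% of all named genes. Ucp1, the uncoupling protein of thermogenesis, Dio2, which activates thyroid hormone, Elovl3, Cox8b, Zic1 and Lhx8 were on no array. Ucp1 had levels from -6.83 to -6.12. Ppargc1a, a coactivator of mitochondrial genes, was on the array of rat 6 alone, at -3.84 against -7.04 to -6.31. The 5 members on all 6 arrays were Cidea and 4 genes at or below 1.87, among them Ebf2, a factor of brown preadipocytes, at -1.64 ± 0.15. Cidea was read on all 6 arrays at 5.12 or more.

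Lists of other organs differed in how many of their genes were above background. Of 10 neuron markers 7 were on no array, namely Rbfox3, Syn1, Nefl, Slc17a7, Gad1, Grin1 and Elavl4. Of 8 photoreceptor markers 5 were on none, among them Pde6b, Crx, Arr3 and Opn1sw, and of 10 sperm and testis markers 6, Tnp2, Akap4, Odf1, Pgk2, Tssk2 and Sycp3. Each of these lists had 2 members on all 6 arrays, against 61% of all named genes.

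Of 12 hepatocyte markers Fgb, Apoh, Tat, Cps1 and F2 were on none and 2 were on all 6, Alb and Hamp. Alb, albumin, was at 1.14 ± 0.61, with 2.32 in rat 3 and 0.65 to 1.20 in the others, and its SD without rat 3 was 0.21. Hamp, the iron hormone hepcidin, was at -3.80. Of 10 skeletal muscle markers Myh1, Myh4 and Ttn were on none and 4 on all 6, among them Mb, myoglobin, at 0.18. Of 9 mesothelial markers Muc16 and Calb2 were on none and 4 on all 6, among them Msln, mesothelin, at 1.81. The shares on none were 41.7%, 30% and 22.2% for these 3 lists, against 25.9% of all named genes. Those of the muscle and mesothelial lists lay near that share. The shares on all 6 were 16.7%, 40% and 44.4%, against 61%.

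Further lists stand beside the 61% of all named genes that were on all 6 arrays. Of 8 Schwann cell markers only Cdh19 was on none and 6 were on all 6, among them S100b, a calcium-binding protein that fat cells also make, at 5.76. Of 7 red blood cell markers only Epb42 was on none and 6 were on all 6. Of 10 pancreas markers Amy2a3 and Gcg were on none and 6 (60%) were on all 6, near the share of all named genes. Among the 6 was Cpa1, a carboxypeptidase, at 2.12. Thy1, a marker of fibroblasts, and the epididymal gene Crisp1 were on none.

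**Figure D2:**
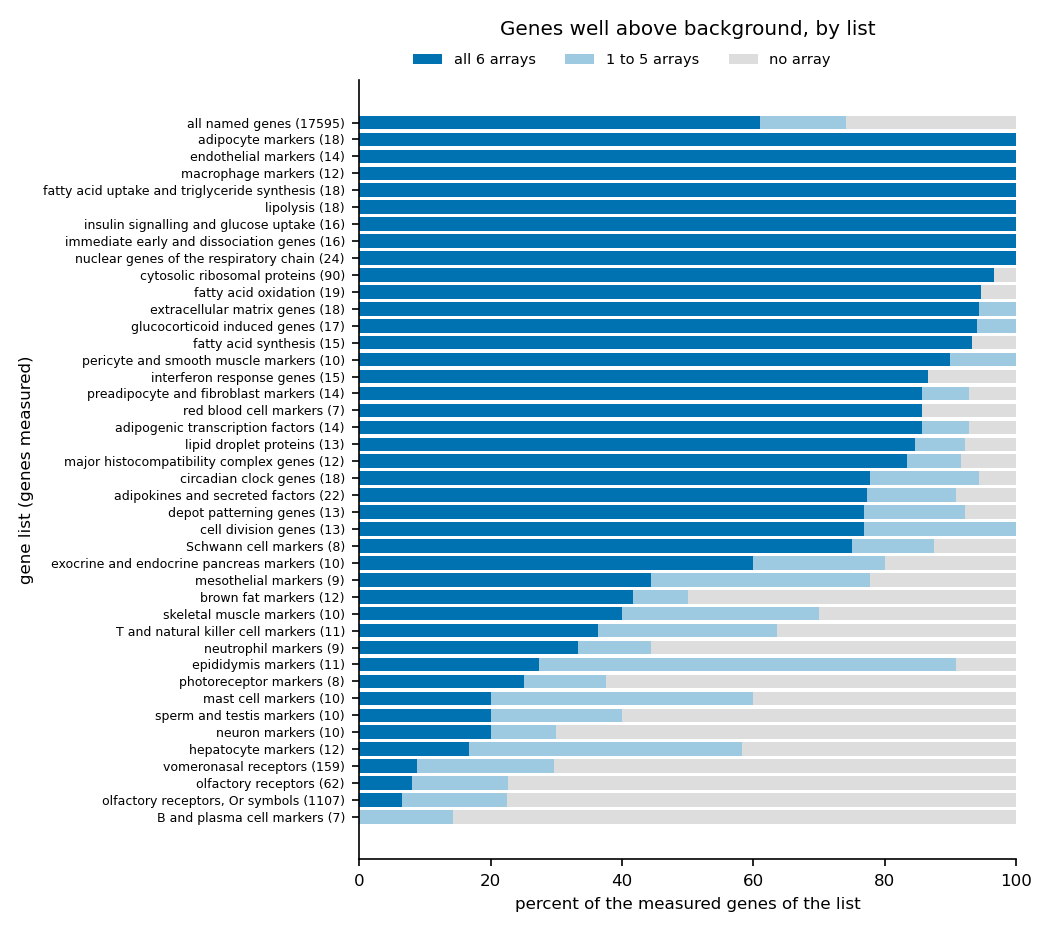
Share of the measured genes of each list (horizontal axis, percent) that were well above background on all 6 control arrays, on 1 to 5 and on none, with the lists on the vertical axis. Adipocyte, endothelial and macrophage markers were detected in full, while 6 of 7 B and plasma cell markers were on no array.

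Cells of the fat pad other than adipocytes were present in the RNA of every rat. All 14 endothelial and all 12 macrophage markers were well above background on all 6 arrays, against 61% of all named genes. So were 12 of 14 preadipocyte and fibroblast markers and 9 of 10 pericyte and smooth muscle markers. Their median levels were lower than that of the adipocyte markers, at 0.78, 1.30, 1.54 and 1.71 against 5.31, each over different probes. Pecam1, the adhesion molecule of endothelium, was at 4.63, 4.22, 2.41, 4.33, 4.68 and 4.28 in rats 1 to 6. Rat 3 lay apart below the others, and the SD of 0.85 fell to 0.21 without it. In bulk RNA fewer cells of a type and less RNA from each of them cannot be told apart.

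Red blood cell genes varied in another pattern. Hbb, a beta globin, was at 5.39, 5.54, 4.13, 5.26, 5.76 and 4.42 in rats 1 to 6, and Hba-a1, an alpha globin, at 5.83, 5.82, 4.51, 5.64, 5.90 and 4.73. Rats 3 and 6 were low for both, and neither overlapped the other 4 rats. Hbb-b1 and Alas2, the haem synthesis enzyme of red cells, had the same low rats, at 3.24 and 3.42 for the former and -3.16 and -2.94 for the latter. Globin genes are near copies of each other, so that the probes may not separate them.

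The median SD between rats was 0.25 log2 units over the 10711 genes, and its 10th and 90th percentiles were 0.12 and 0.57. Spots of the same probe on the same array differed less, with a median SD of 0.08, and the ratio of the 2 for single genes was 2.98 at the median. An SD from 6 values is itself uncertain, with a 95% chi-square interval from 0.62 to 2.45 times its value. Without rat 3 the median SD was 0.18, and without any other single rat it was 0.24 to 0.27. Only 111 genes (1.04%) had an SD above 1.

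**Figure D3:**
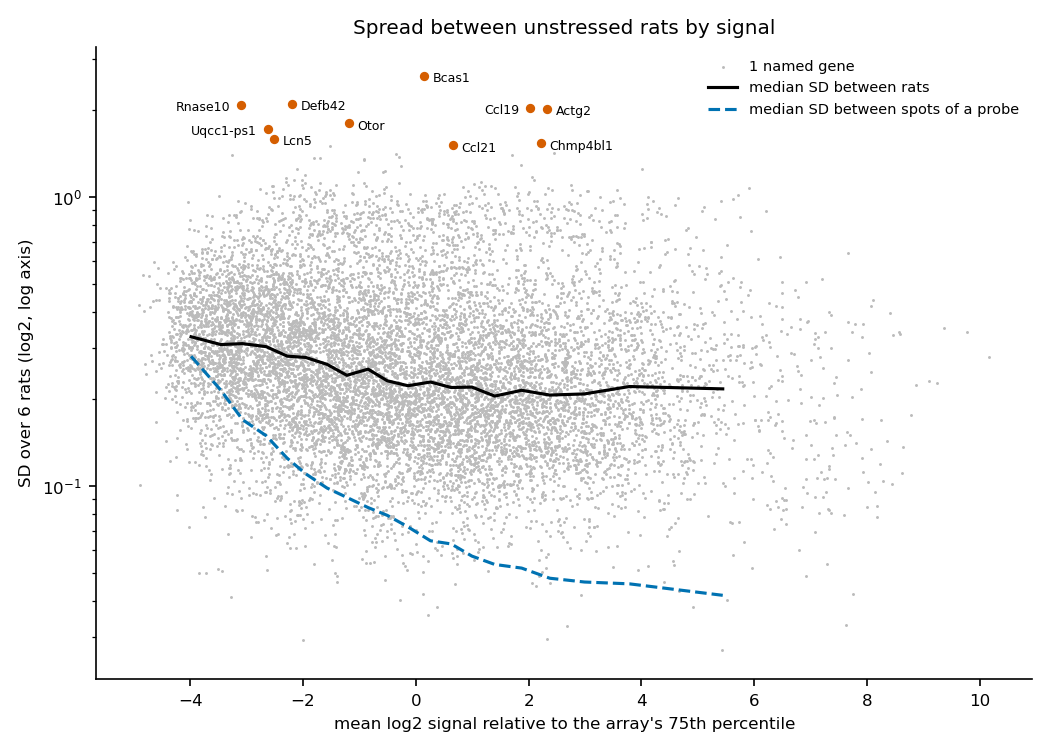
SD over the 6 rats (vertical axis, log2 units on a log axis) against mean level (horizontal axis, log2 relative to the 75th percentile) of the 10711 genes detected on all 6 arrays, with the 10 most variable genes named and lines at the running median SD between rats (solid) and between spots of a probe (dashed). Bcas1 had the largest SD at 2.63, and the median SD was 0.25.

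Endothelial markers were lowest in rat 3 for 13 of 14 genes, where 27% of all genes were, and the list mean was -0.39 there against 1.09 to 1.50 in the other rats. Robo4, a guidance receptor of endothelium, was the exception and was highest in rat 3 (named after its value was seen). Vwf, von Willebrand factor, was at 1.45 in rat 3 and 3.06 to 3.43 elsewhere, and Kdr, the main VEGF receptor, at 3.14 against 4.23 to 5.23. Cdh5, the cadherin of endothelial junctions, at -1.22 lay less far below the -0.86 to -0.43 of the others. Tek and Flt1, receptors for angiopoietins and VEGF, were at -4.71 and -2.49 in rat 3 against -2.86 to -2.26 and -0.98 to -0.11.

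Pericyte and smooth muscle markers had a list mean of 0.54 in rat 3 and 1.76 to 2.19 in the others. Tagln, the actin-binding protein transgelin, was at -0.74 in rat 3 against 2.04 to 2.76, Acta2, smooth muscle actin, at -0.16 against 1.57 to 2.29, and Rgs5, a pericyte regulator of G proteins, at -2.07 against -0.22 to 0.36. Cspg4 went the other way, with its highest value of 3.02 in rat 3 and 2.95 in rat 6. Fibroblast markers had a list mean of 1.06 against 2.00 to 2.18, but the members divided. Of the 12 detected, 8 were lowest in rat 3 and 4 highest there, against 27% and 43.5% of all detected genes. Among the low ones, Pdgfra, the receptor that marks adipocyte progenitors, was at -0.31 against 1.86 to 2.16. Dcn, the matrix protein decorin, was at 2.29 against 4.35 to 4.97. Col1a1 and Col1a2, the chains of type I collagen, were at 3.27 and 3.63 in rat 3 and at 4.82 to 5.33 and 5.85 to 6.14 elsewhere. Col4a1, a basement membrane collagen that adipocytes also make, was highest in rat 3, at 6.78 against 5.97 to 6.50.

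Macrophage markers had a list mean of 0.38 in rat 3 and 1.43 to 1.55 in the others. C1qa and C1qb, complement components made by macrophages, were at 1.17 and 2.38 in rat 3 and at 2.91 to 3.34 and 4.09 to 4.68 elsewhere, and Cd163, a scavenger receptor of tissue macrophages, at -1.49 against 0.44 to 1.35. Csf1r, their growth factor receptor, at -1.66 lay within the -1.74 to -1.29 of the others. Genes of the major histocompatibility complex had a list mean of 1.81 against 2.59 to 2.99, with the class II genes RT1-Da and RT1-Db1 at 1.31 and 3.14 against at least 2.67 and 4.21. The interferon response list was at -0.21 against 0.64 to 1.10, with Isg15, a ubiquitin-like protein, at -0.95 against 0.65 to 1.05.

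In the other direction, 23 of 24 nuclear genes of the respiratory chain and 17 of 18 detected genes of fatty acid oxidation were highest in rat 3, where 43.5% of all genes were. Respiratory chain genes had a list mean of 5.21 in rat 3 and 4.48 to 4.61 in the others, with Ndufa1, a subunit of complex I, at 6.12 against 5.39 to 5.51. Acadm, medium-chain acyl-CoA dehydrogenase, was at 4.09 against 3.31 to 3.42. Cpt1a, the liver-type carnitine palmitoyltransferase, was the single oxidation gene lowest in rat 3, at -1.99 against -0.81 to -0.54, whereas Cpt1b, the muscle type that is also found in adipocytes of the rat, was highest there at 1.73 against 1.10 to 1.48. With no scaling between arrays, the difference of the respiratory chain list from the mean of the other rats fell from 0.65 to 0.02, and rat 3 no longer lay apart. Lists of fatty acid synthesis, insulin signalling, lipid droplets, fatty acid uptake and lipolysis were 0.41 to 0.53 above the mean of the other rats.

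Other lists did not divide this way. The neutrophil list was 0.59 higher in rat 3 than in the mean of the other rats and the T and natural killer cell list 0.26 lower, although the means of the macrophage, interferon and histocompatibility lists were lowest there. The pancreas list, over 6 detected genes, was 0.39 higher in rat 3, and the list of 62 olfactory receptors, over 5 detected genes, was 0.68 higher.

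These differences hold relative to the scaling. The adipocyte marker list lay 0.11 to 0.74 above the other rats over 9 ways of processing the arrays, and relative to the median gene 0.43 to 0.61 above. The difference of the endothelial list lay between -2.26 and -1.24. Without scaling the difference of the median gene itself was -0.50 in rat 3, and then the lists of fatty acid oxidation, synthesis, uptake, lipid droplets, lipolysis and insulin signalling turned to values from -0.22 to -0.10, while staying above the median gene. The scaled spike-in levels given above were high in rats 1 and 3, and their part in these list differences was not tested.

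**Figure D4:**
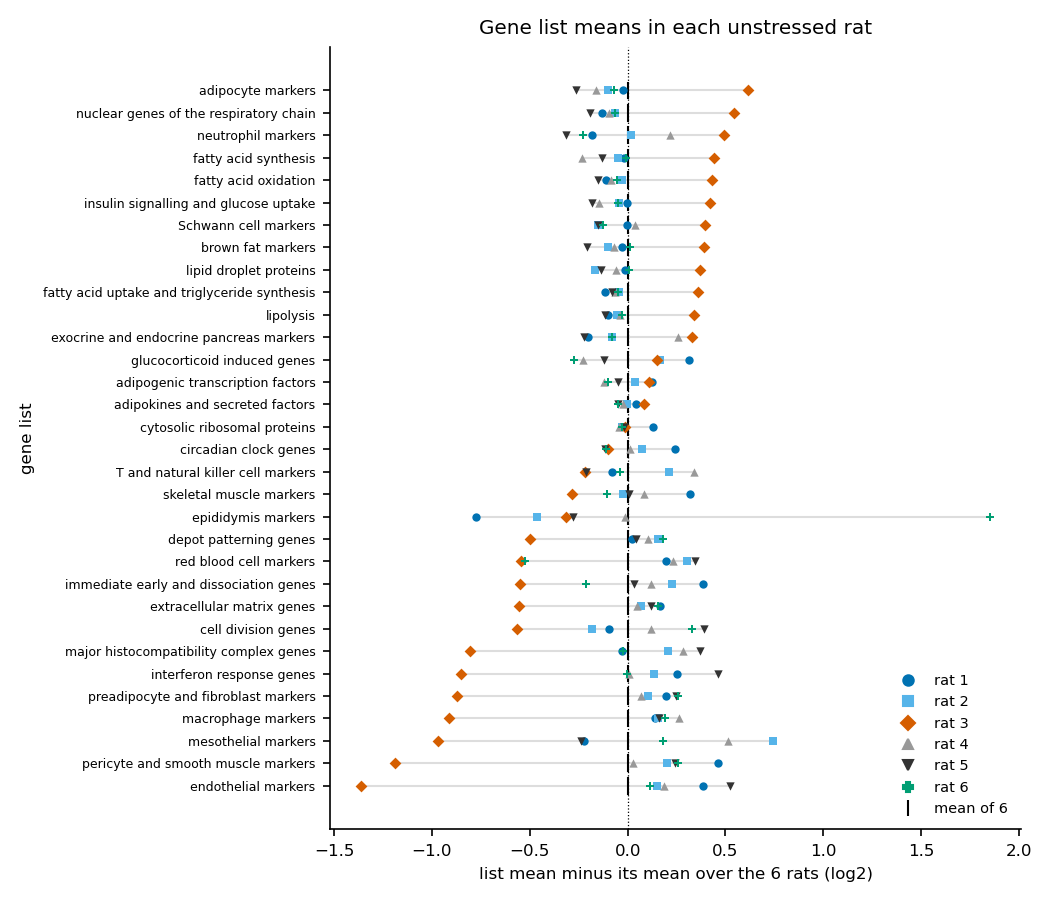
Mean log2 level of each gene list in each of the 6 unstressed rats (horizontal axis, as the difference from the mean over the 6 rats) with the lists on the vertical axis and 1 symbol for each rat. Rat 3 lay below the others for endothelial, smooth muscle, fibroblast and macrophage markers and above them for adipocyte markers and respiratory chain genes.

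The 20 genes with the largest SD fell into few patterns. Lowest in rat 3 were 10 of the 20 and 424 of the 500 most variable genes, against 27% of all detected genes. The SD that ranks them includes rat 3, so a gene far off in rat 3 ranks high by construction. Ccl19, a chemokine of lymphoid tissue, was at 3.56, 2.01, -1.96, 2.43, 2.65 and 3.43 in rats 1 to 6, and its SD of 2.04 fell to 0.66 without rat 3. Actg2, a smooth muscle actin, was at 4.20, 3.68, -1.44, 1.87, 3.11 and 2.56, with an SD of 2.02 and of 0.91 without rat 3. Both were more than 3 units lower in rat 3 than in any other rat.

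Ccl21, a lymphatic chemokine, was at -2.12 in rat 3 and ranged from 0.63 to 2.45 in the others. Ptx3, a pentraxin of inflammation, was at -4.49 against -1.35 to -0.22, and Gprc5a, an orphan receptor, at -3.54 against -0.86 to 0.14. Tpm2, a muscle tropomyosin, was at -0.37 against 2.48 to 3.47. The endothelial genes Esm1 and Selp, an endothelial proteoglycan and the adhesion receptor P-selectin, were at -2.98 and -0.92 against -0.64 to 1.03 and 1.52 to 3.14. Tspan11, a tetraspanin, was at -2.99 against -0.37 to 0.85. For each of these 7 genes the SD lay between 1.35 and 1.51 with all rats and between 0.36 and 0.74 without rat 3.

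Rat 6 differed from the rest in genes of the epididymis, the organ that the sampled pad lies on. Defb42, a beta-defensin, was at -3.06, -3.29, -2.71, -1.94, -4.05 and 1.87 in rats 1 to 6, and Rnase10, a secreted ribonuclease-like protein of the epididymis, at -4.22, -3.91, -4.39, -3.15, -3.98 and 1.06. Lcn5, an epididymal retinoic acid carrier, was at 0.48 in rat 6 and -3.94 to -2.39 in the others, and Adam7, a sperm maturation protein, at 1.32 against -2.22 to -0.11. Each of these 4 genes was highest in rat 6 and all are among the 20 with the largest SD. Without rat 3 their SD was 1.45 to 2.34, so the array that stood apart overall does not carry this pattern.

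Of 11 measured epididymis markers 7 were highest in rat 6, where 8.33% of all named genes were and 8.69% of those detected on all 6 arrays, and 6 exceeded every other rat by more than 1 unit. Lcn8, a lipocalin, was at -6.87, -6.72, -6.50, -3.43, -6.23 and 0.84 in rats 1 to 6. Teddm1a, a membrane protein of the epididymis, was at -6.77, -7.02, -6.42, -2.27, -6.83 and 2.15. Each was well above background on 2 of the 6 arrays, and rat 4 was the second highest rat for both. Cst8, an epididymal cystatin, was on the array of rat 6 alone, at -1.49. Spink8 went another way and was lowest in rat 3, and Crisp1 was on no array. The list mean of the 3 members detected on all 6 arrays was 0.43 in rat 6 and -2.19 to -1.43 in the others.

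Over all 17595 genes, 35 exceeded every other rat by more than 2 units in rat 6, 27 in rat 5 and 1 to 5 in each of the other 4 rats. Gpx5, an epididymal glutathione peroxidase, was the one with the widest gap, at -6.88, -6.16, -6.52, -2.04, -6.93 and 3.16. The defensins Defb41, Defb44 and Defb25, the lipocalin Lcn9 and the cystatin Cst12 were also among the 35. Those 6 genes were chosen after their values were seen. Of the sperm and testis list only the protamine genes Prm1 and Prm2 were on all 6 arrays. Prm1 was at -3.67 in rat 6 and -3.70 to -3.33 in the others, and Prm2 at -2.63 in rat 6 and -2.87 to -1.80 in the others, so rat 6 lay within their range for both. Whether tissue of the epididymis was in the sample was not tested.

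Bcas1, a gene of myelin-forming cells, had the largest SD of all, with -2.79, 1.50, 2.82, 1.87, -3.51 and 0.98 in rats 1 to 6, an 80.7-fold range. Rats 1 and 5 were low and the other 4 high, and the SD without rat 3 was still 2.55. The second probe of Bcas1 read -5.57 and was well above background on 1 array. Otor, a secreted protein of cartilage, was similar, at -3.47, -0.50, 0.50, 0.12, -3.48 and -0.33, and its second probe was on no array. Cyp2s1, a cytochrome P450, and Spopfm2l2 were also lowest in rats 1 and 5, at -2.77 and -3.90 for the former and -3.30 and -3.64 for the latter. Dlk1, the preadipocyte factor, had -5.94, 0.17, 1.87, 0.67, -5.66 and -0.70 and was well above background on 4 arrays.

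A repeat of adenine and cytosine in a probe went with a similar order of rats. Of the 30367 probes 16 hold 6 or more AC units in a row, and all 16 were well above background on all 6 arrays, against 56% of all probes. Their median level was 2.99, 3.40, 5.20, 4.42, 2.24 and 3.28 in rats 1 to 6, and all 16 were highest in rat 3 (44% of all detected probes) and 14 lowest in rat 5 (22.4%). Their median SD was 1.01, against 0.25 over all detected genes. Stretches of 5 of these probes are given with the repeat in capitals, since the genes have unrelated roles while the probes share the letters.
Ttf2 (chr2:196016517-196016576, minus strand): agatgcaACACACACACACACACACACACA
Rassf2 (chr3:119735774-119735833, minus strand): ctaACACACACACACACACACACACACACA
Cx3cr1 (chr8:125033728-125033787, minus strand): aacagattcACACACACACACACACACACA
Cym (chr2:202681433-202681492, minus strand): caaccACACACACACACACACACACACACA
Vwf (chr4:161738186-161738245, plus strand): aACACACACACACttaaatatgacgtacac
Ttf2, a transcription termination factor, was at 1.42, 1.88, 3.76, 3.12, 0.64 and 1.72, and Cx3cr1, the fractalkine receptor of immune cells, at 1.26, 1.43, 3.44, 2.69, 0.51 and 1.25. Both had rats 3 and 4 highest and rat 5 lowest.

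The second probe of Ttf2 read -3.33 and was also lowest in rat 5, at -3.70, while rat 3 at -3.18 was its second highest rat. For Tmem47, a junction protein, and Ptprn2, a protein of neuroendocrine granules, the repeat probe read 4.11 and 5.41 and the other probe -6.81 and -6.78, on no array, where values have no order. For Vwf the repeat probe was highest in rat 3 at 1.06 while the brightest probe, without the repeat, was lowest there at 1.45 against 3.06 or more. The repeat probe of Vwf was lowest in rat 5, at -1.83, and the brightest probe was at its second highest value in the same rat.

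Probes with the complementary repeat of guanine and thymine tended the other way. Of 14 such probes 13 were well above background on all 6 arrays, and 9 were highest in rat 5 and lowest in rat 3 or 4, where 10.4% of all detected probes were. Their median level was 4.94, 4.67, 4.10, 4.14, 5.54 and 4.99 in rats 1 to 6.
Hivep3 (chr5:140716450-140716509, plus strand): GTGTGTGTGTGTGTGTGTGTatacacacag
Tcf15 (chr3:142497313-142497372, plus strand): agcGTGTGTGTGTGTGTGTGTGTGTGTctg
Pax3 (chr9:77477823-77477882, minus strand): ttccatGTGTGTGTGTGTGTGTGTGTGTGT
Tcf15, a transcription factor also made by endothelial cells of fat, was at 5.18, 5.05, 4.23, 4.49, 5.80 and 5.37. Pax3, a factor of muscle and neural crest precursors, read 3.86 from the repeat probe and -4.93 from its other probe, and Hivep3, a zinc finger protein, 4.83 and -6.65. A further 6 probes with a repeat of TC were all highest in rat 3, where 44% of all detected probes were. The complementary repeat of AG did not go the other way. Of its 2 probes 1, which also holds an AC repeat, was highest in rat 3, and none was lowest there. Bcas1, Otor, Cyp2s1 and Spopfm2l2 hold none of these repeats. The genes of the repeat probes were chosen after their letters and values were seen, and the part of repeat letters in the signal was not tested.

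**Figure D5:**
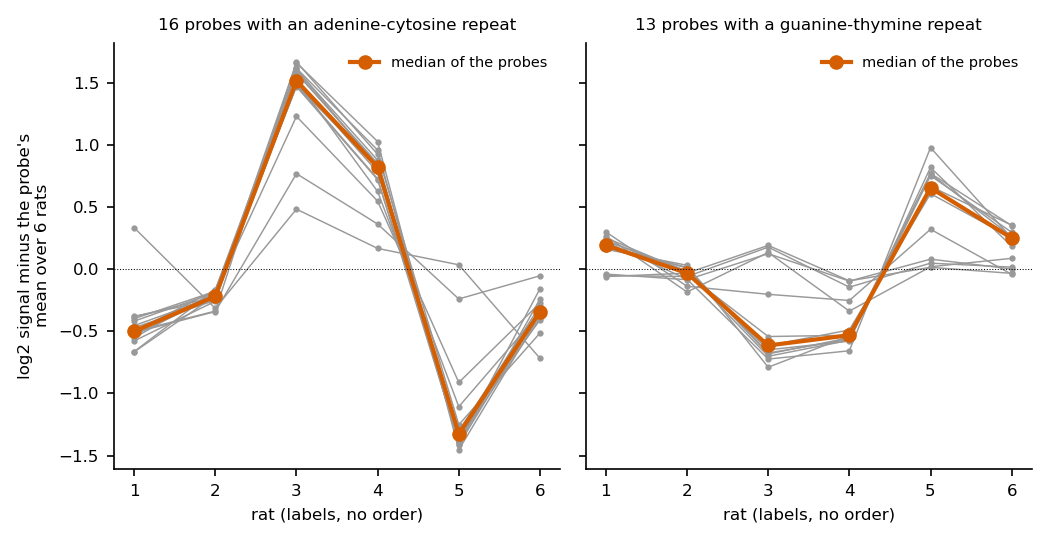
Log2 signal minus the probe's mean over the 6 rats (vertical axis) in rats 1 to 6 (horizontal axis) of the 16 probes with an adenine-cytosine repeat and the 13 detected with a guanine-thymine repeat, with 1 thin line for each probe and the median as a thick line. All 16 of the first kind were highest in rat 3, and 9 of the second kind were highest in rat 5 and lowest in rat 3 or 4.

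Rat 1 was high for a few genes of its own. Uqcc1-ps1, a copy of an assembly factor of respiratory complex III, was at 0.61 in rat 1 and -3.92 to -2.19 in the others, and Znrf4, a ubiquitin ligase, at -0.59 against -4.27 to -2.84. Chmp4bl1, a relative of a membrane remodelling protein, was spread over the rats, at 4.68, 0.40, 2.06, 0.87, 3.01 and 2.27. Their SDs without rat 3 were 1.84, 1.53 and 1.72. The mean of the ribosomal protein list was also highest in rat 1, at 6.58 against 6.40 to 6.43.

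Of 18 measured circadian clock genes 14 were well above background on all 6 arrays, and of 17 glucocorticoid induced genes 16, against 61% of all named genes. Their median SDs were 0.28 and 0.39, against 0.25 over all genes. For neither list did the mean of 1 rat lie apart from the others. Dbp, a clock output factor, was at 2.47, 3.11, 2.72, 3.39, 4.06 and 3.80 in rats 1 to 6, and Nfil3, a repressor at the same promoter sites, at -0.50, -1.19, -1.81, -1.72, -2.49 and -3.12. Rats 5 and 6 were the highest for Dbp and the lowest for Nfil3, and rat 1 the reverse. Bmal1 and Npas2, partners in the clock's activating complex, were lowest in rat 5, at -1.67 and -1.80 against -1.40 to -0.84 and -1.45 to -0.82. Per2, a clock repressor, was lowest in rat 3 at -1.84 against -1.18 to -0.76. The hour at which each rat was sampled is not in the labels.

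Zbtb16, a transcription factor that glucocorticoids strongly induce, was at -0.77, -1.12, -1.10, -2.93, -2.76 and -3.43, and Fkbp5, a co-chaperone of the glucocorticoid receptor, at 4.19, 3.76, 4.17, 2.48, 3.22 and 3.31. Rats 1, 2 and 3 lay above rats 4, 5 and 6 for both genes. The mean of the glucocorticoid list, which holds both, was split in the same way, at 2.35, 2.20, 2.19, 1.81, 1.92 and 1.76. Tsc22d3, another glucocorticoid target, did not show this split, with 5.13, 5.25, 5.89, 4.66, 5.18 and 5.39. Mt1, a metallothionein, was at 7.18 in rat 1 and 5.55 to 6.36 in the others. Dbp and Nfil3 were chosen after their values were seen, and no corticosterone value of single rats was used here.

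All 16 measured immediate early and dissociation genes were well above background on all 6 arrays, against 61% of all named genes. Junb and Egr1, early transcription factors, were at 5.69 ± 0.38 and 4.68 ± 0.30, Jun at 4.93 ± 0.54 with 5.95 in rat 1, and Fos at 2.68 ± 0.28. Of the list, 9 of 16 genes were lowest in rat 3 and none was highest there, against 27% and 43.5% of all detected genes. Genes of cell division were low but present, with 10 of 13 (76.9%) on all 6 arrays. Top2a, a topoisomerase of dividing cells, was at -3.23 ± 0.71, with -4.48 in rat 3, and Cdk1, the mitotic kinase, at -0.62 ± 0.44. The SD without rat 3 was 0.11 for Junb and 0.41 for Top2a.

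At the other end, 10 genes varied by no more than an SD of 0.04 between the 6 rats. Ilk, integrin-linked kinase, was at 2.34, 2.30, 2.37, 2.31, 2.31 and 2.35, a 1.05-fold range. Snrpb and Gemin2, proteins of spliceosomal particles and their assembly, and U2af1l4, a splicing factor relative, were at 2.68, 0.22 and -0.28. Emg1, an enzyme of ribosome biogenesis, lay between -2.04 and -1.96. Psme2, a proteasome activator subunit, was at 4.91 and Casp4, an inflammatory caspase, at 0.38. The ribosomal copies Rpl27a-ps14 at 5.44 and Rps20l1 at 5.52 were also in the group. For the 8 of the 10 with more than 1 spot on the array, the SD between rats was smaller than the SD between spots, so their order is not resolved.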

How the data were processed

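RNA of epididymal adipocytes was hybridised to 1-colour Agilent rat gene expression arrays, although the study's methods name an exon array. Per the file headers, the deposited intensity values were made with Agilent Feature Extraction 10.7.3.1, which subtracted background within each array. The authors' own table holds intensity values that were quantile normalised over 12 arrays on a linear scale, and 6 of its sample columns, of the stressed rats, were not used.

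Without control spots and outlier spots, the deposited intensity was averaged over the spots of each probe, and its log2 minus that of the array's 75th percentile was taken in Python 3.11.15 with pandas 2.3.3, numpy 2.4.6 and scipy 1.17.1. Genes were named through RefSeq accessions or symbols (17514 probes by accession, 2673 by symbol, 690 by synonym and 214 by other accessions), and 9276 probes kept the name of the file. The brightest probe stood for a gene. Detection is the scanner's flag for spots well above background. Summaries were tested on simulated data.

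No groups were compared and no test across genes was run. Named genes are the 30 brightest, the 20 with the largest and the 10 with the smallest SD, the first 6 measured genes of each list, undetected markers, and those chosen after their values were seen, which include Robo4, Trarg1, Ebf2, Kit, Cxcr2, Nkg7, Hamp and Mb. Genes and lists were chosen with earlier results of these data known. Alternatives included quantile and no scaling, normexp background correction with an offset of 50 in limma 3.58.1 (R 4.3.3), the authors' table, other filters, and leaving out each rat. The labels do not say whether rats shared cages. Only 6 arrays limit the precision. Some genes that the rule names are not reported here.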

Additional observations from a re-analysis of the deposited data

Results flagged for a closer look

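One rat lay far from the others for 64 of the 250 genes named in the text and for 20 of the 35 gene lists with a mean in every rat. The measure was the gap between that rat and its nearest neighbour divided by the whole range of the 6 rats, with a limit of 0.625. Chance alone passes this limit in about 1 of 20 groups of 6. Over all genes detected on all 6 arrays 16.1% passed it, and rat 3 was the outlying rat for 49 of the 64 genes and 18 of the 20 lists. The 250 genes include those with the largest SD and genes chosen after their values were seen. Their count therefore cannot be read against chance or against the share over all genes.

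Among fat cell genes high in rat 3, the gap was 0.78 of the range for Adipoq, 0.77 for Lpl, 0.71 for Pparg, 0.72 for Cebpa, 0.69 for Pnpla2 and 0.63 for Lep. It was 0.76 for Ces1d and 0.63 for Slc27a1. Genes of energy metabolism followed, with 0.85 for Acadm and 0.83 for Ndufa1, and so did the bright genes Fth1 at 0.70, Ftl1 at 0.63, Ppia at 0.81, Chchd2l3 at 0.77 and Ceacam9 at 0.67. Alb was high at 0.67 and S100b at 0.70. Of genes not well above background on any array, Dio2 at 0.72, Elovl3 at 0.80, Gcg at 0.70, Ms4a2 at 0.64, Ngp at 0.79 and Ttn at 0.66 were also highest in rat 3, the array with the lowest 75th percentile. Values at this level have no order.

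Many of the named genes low in rat 3 were genes of vessels, stroma and immune cells, whose lists were chosen for the report. Over all detected genes rat 3 was the low outlier for 887, which were not sorted by cell type. The gap was 0.80 for Pecam1, 0.81 for Vwf, 0.76 for Tek and 0.63 for Flt1. It was 0.79 for Tagln, 0.71 for Acta2, 0.76 for Rgs5 and 0.74 for Tpm2. Stromal genes reached 0.88 for Pdgfra, 0.75 for Col1a1, 0.88 for Col1a2, 0.77 for Dcn, 0.85 for Tcf21 and 0.68 for Wt1. Immune and inflammatory genes reached 0.80 for C1qa, 0.74 for C1qb, 0.68 for Cd163, 0.65 for RT1-Da, 0.80 for Isg15, 0.72 for Ccl19 and 0.73 for Ptx3. Further genes were Gprc5a at 0.73, Tspan11 at 0.68, Junb at 0.72, Cpt1a at 0.82 and Scd2 at 0.67.

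Lists high in rat 3 were adipocyte markers at 0.73, fatty acid uptake at 0.85, lipid droplets at 0.68, lipolysis at 0.81, fatty acid synthesis at 0.67, insulin signalling at 0.70, fatty acid oxidation at 0.79, the respiratory chain at 0.83, brown fat markers at 0.63 and Schwann cell markers at 0.65. Lists low in rat 3 were fibroblast markers at 0.83, endothelial markers at 0.78, pericyte and smooth muscle markers at 0.74, macrophage markers at 0.90, matrix genes at 0.84, depot patterning genes at 0.77, interferon response genes at 0.65 and histocompatibility genes at 0.66. These values are of list means and do not hold for every member. Of 10 detected depot patterning genes 5 were lowest in rat 3. Of 17 detected matrix genes 12 were lowest and 5 highest there. Over all detected genes 27% were lowest and 43.5% highest in rat 3. Over 9 ways of processing the arrays, rat 3 lay past the limit in all 9 for the means of fibroblast, endothelial, pericyte, macrophage, matrix and depot patterning genes. It did so in 8 for adipocyte markers, lipolysis, insulin signalling, fatty acid oxidation, the respiratory chain and the interferon response, in 7 for fatty acid uptake and histocompatibility genes, in 6 for fatty acid synthesis, lipid droplets and Schwann cell markers, and in 5 for brown fat markers.

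Rat 6 lay apart above the others for the epididymis list at 0.71 and for Defb42 at 0.64, Rnase10 at 0.77, Lcn5 at 0.65, Cst8 at 0.72, Cst12 at 0.78, Defb25 at 0.82, Defb41 at 0.71 and Defb44 at 0.89. Of these genes, Cst12, Defb25, Defb41 and Defb44 were chosen after their values were seen, and Defb42 and Rnase10 for their large SD. Their gaps are therefore a description only. Rat 6 was also high for Ppargc1a at 0.77 and low for Pik3ca at 0.65. Rat 5 was high for Cd36 at 0.73, rat 4 low for Rpl27a-ps14 at 0.65, and rat 1 high for Rps23 at 0.79 and for the mean of the ribosomal proteins at 0.83. Thy1 at 0.72 in rat 6 and Tbx15 at 0.64 in rat 5 were not well above background on any array, so these values rank signals that have no order.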

How the results depend on the processing

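No paired analysis was possible because no groups were compared. All 18 adipocyte markers were still detected on all 6 arrays when every spot of a probe had to pass. Leaving out a rat or using a weaker flag could not have lowered this count, so those runs are no check of it. The 50 most variable genes depended most on the choices. They shared 33 genes with the list given when the SD was divided by the median SD of genes of like level, 17 with the median absolute deviation, 8 with no filter on dim probes and 21 with normexp correction. Leaving out 1 rat left 24 to 46 shared, 24 without rat 3. Genes on no array numbered 1356 with the scanner's weaker flag for a positive and significant signal. Genes with an outlying rat numbered 628 to 1496 when 1 rat was left out, 628 without rat 3. Of the SDs of 75 single genes 43 shifted with no scaling, 32 without rat 3, 28 in the authors' table and 23 with quantile normalization. With no scaling between arrays, rat 3 minus the mean of the other rats turned to -0.16 for Schwann cell markers, -0.16 for brown fat markers, -0.11 for fatty acid oxidation, -0.10 for fatty acid synthesis, -0.20 for fatty acid uptake, -0.12 for insulin signalling, -0.19 for lipid droplets and -0.22 for lipolysis. With no scaling the same difference for the median gene also turned, from 0.13 to -0.50. The cause of the other shifts was not tested. Each rat gave 1 array, so differences between rats hold any difference between preparations, and dim probes give only a bound.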
